A study of Pleuronichthys verticalis with 38 samples.

Results

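The livers of hornyhead turbot (Pleuronichthys verticalis) injected with polybrominated diphenyl ethers (PBDEs) were compared with the livers of fish injected with the oil vehicle alone. The exposed fish were taken as all samples titled high or low PBDE, and the controls as all samples titled oil control, giving 19 of the 38 fish of the study. The high PBDE group (6 fish) had received 5 µg and the low PBDE group (7 fish) 0.5 µg of a mixture of the congeners BDE 47, 99 and 100 per g body weight, in a single injection of peanut oil into the body cavity. The oil controls (6 fish) had received the same volume of peanut oil, 2 mL per kg, with no PBDEs. All livers were taken 96 h after injection, and the PBDE and oil fish alike had thus been handled and injected. The high PBDE group held 5 males, 0 females and 1 immature fish, the low PBDE group 5 males and 2 females, and the oil controls 4 males, 1 female and 1 immature fish. The exposure was to a mixture, so no value below belongs to a single congener. The other 19 fish of the study were 12 given polychlorinated biphenyls (PCBs) in oil and 7 titled seawater control. The seawater controls were not injected, although seawater control 7 is also labelled a vehicle control. These 19 fish entered the fit, where they helped to estimate the spread between fish and the sex term. They also counted in the choice of probes bright enough to be tested.

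PBDEs are brominated flame retardants that dissolve in fat and build up in fish, and BDE 47, 99 and 100 are among the congeners found most often in aquatic animals. Hornyhead turbot live on soft sediment off southern California and are used as a sentinel of contamination there. The liver is where fish take up, modify and excrete much of what is foreign to them, and it also makes yolk and eggshell proteins, lipoproteins and thyroid hormone carriers, which is why effects of PBDEs on thyroid and sex steroid signalling are often looked for in this organ.

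Each liver was hybridised to 1 array of a custom design, and 10492 probes were bright enough to be tested. The deposited files pair every probe with a contig number and with no gene name, so probes are given here by identifier, gene groups could not be formed, and the liver identity of the samples could not be checked against marker genes. For each comparison at most 2 probes on the higher and 2 on the lower side are named, those with the smallest p. A level is the log2 of a probe's signal over the 75th percentile of its array, so that 1 unit is a 2-fold difference and levels under 0 lie below the percentile. Differences come from a linear model of group and sex with limma, and adjusted p-values are Benjamini-Hochberg values over the 10492 probes. The averaged comparison gives each dose equal weight.

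The 19 liver profiles were alike. Across probes, the correlation between any 2 of these arrays lay between 0.929 and 0.961. The number of probes well above background was 7303 on the poorest array (low PBDE 38) and 10287 on the richest (low PBDE 5), and the 75th percentile lay between 74.3 (low PBDE 38) and 184 (low PBDE 12) intensity units. Neither measure separated the groups: probes well above background numbered 8884 ± 817 in PBDE fish and 8924 ± 526 in oil controls (SD, n = 13 and 6, exact permutation test, two-sided, p = 0.925), and the 75th percentile was 129 ± 31 in PBDE fish and 130 ± 26 in oil controls (exact permutation p = 0.982), with an adjusted p of 0.995 for both over 5 measures per array. The typical spread between fish was of like size in all 3 groups, with a median SD over probes of 0.46 log2 units at the high dose, 0.52 at the low dose and 0.51 in oil controls. The arrays lay on slides of which 6 held both PBDE and oil fish, 1 oil control on each, while 1 slide held high PBDE 18 and low PBDE 51 with no oil control.

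The central question was what PBDEs change in the liver beyond the oil injection, whatever the dose. No probe passed in the averaged comparison (0 of 10492, 0%, limma, smallest adjusted p = 0.713). An unadjusted p under 0.05 was found for 512 probes (4.88%), and 524.6 are what chance alone would give. Of the 512, 247 (2.35%) were higher and 265 (2.53%) lower in PBDE fish. With arrays centred on their median in place of the 75th percentile, 289 of 451 such probes were higher, so the balance of directions depends on the scaling. No probe separated the groups fully: in 0 of 10492 (0%) did all 13 PBDE fish lie above, or all below, the 6 oil controls. The closest came 3 probes with 12 of 13 PBDE fish above every oil control and 1 probe with 12 of 13 below. What chance alone would give for these counts was not computed. A joint test for a difference at either dose, in any direction, also found 0 of 10492 (0%, limma F test, smallest adjusted p = 0.186), with 438 probes (4.17%) at an unadjusted p under 0.05.

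**Figure D1:**
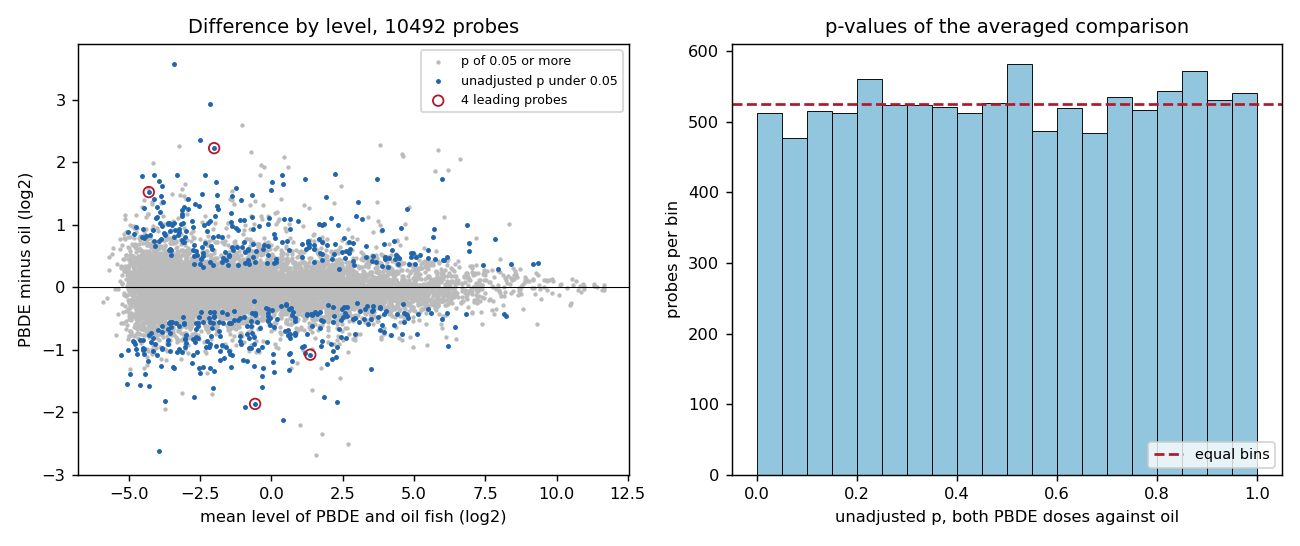
Left, the averaged difference of PBDE minus oil fish (log2) against the mean level of the 19 fish (log2 relative to the array's 75th percentile), with 1 point per tested probe and the 4 leading probes ringed. Right, the number of probes in 20 equal bins of the unadjusted p, with a dashed line where equal bins would lie: the leftmost bin holds 512 probes, close to the line at 524.6.

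The size of the differences that these fish leave possible was set by the intervals. The median half-width of the 95% intervals was 0.57 log2 units in the averaged comparison, a factor of 1.48, against 0.66 (a factor of 1.58) for the high dose and 0.65 (a factor of 1.57) for the low dose on its own. For 7314 probes (69.7%) the interval of the averaged difference lay wholly within 2-fold in either direction, and for 10115 (96.4%) wholly within 4-fold. No adjustment for multiple probes was made to these intervals. Brighter probes were measured more tightly. Among the 2623 brightest probes 83.0% had an interval within 2-fold, with a typical factor of 1.34, and among the 2623 dimmest 44.7%, with a typical factor of 1.72. In 4 classes of 2623 probes, ordered from dim to bright, the share at an unadjusted p under 0.05 was 3.7%, 4.38%, 5.22% and 6.21%.

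Point estimates of 2-fold or more were found for 250 probes, 152 (1.45%) higher and 98 (0.934%) lower in PBDE fish, and 139 of them had an unadjusted p under 0.05. They ran from -2.69 to 3.58 log2 units. Of the tested probes, 32 are on the array in 10 copies. Their averaged differences lay between -0.83 and 0.32 log2 units, none (0) had an unadjusted p under 0.05 by limma, and 29 had an interval within 2-fold.

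Whether the doses moved together was asked probe by probe. The high and the low dose lay on the same side of oil for 6967 of 10492 probes (66.4%), both higher for 3043 and both lower for 3924, and on opposite sides for 3525. Both doses are measured against the same 6 oil controls, which pulls their signs together, so this share is a description of the rule and no sign of a shared response. Among the 512 probes at an unadjusted p under 0.05 in the averaged comparison, 511 had the doses on the same side. That is built in, since an average is large only where its parts do not cancel. Within these 512, 106 also had an unadjusted p under 0.05 at each dose on its own, 184 at the high dose only, 159 at the low dose only and 63 at neither. Of all 10492 probes, 505 (4.81%) had such a p at the high dose and 462 (4.4%) at the low dose. The 512 were chosen by the average of the same 2 differences from oil, which by itself raises their shares. The test of the high against the low dose, which uses no oil control, reached an unadjusted p under 0.05 for 13 of the 512, against 420 of all 10492 probes (4%). Of the 10492 probes, both doses were 2-fold or more above oil for 57 and 2-fold or more below it for 46. Past 2-fold in opposite directions were 2 probes. The shared oil controls favour the same side here too, so these counts are no sign of a shared response.

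HT_SCCWRP_1494 (contig_1494) was the probe with the smallest p among those higher in PBDE fish. Its level was -5.42, -3.28 and -2.37 (lowest, median, highest of 6) at the high dose, -5.23, -4.00 and -3.09 (of 7) at the low dose and -6.38, -5.30 and -4.50 (of 6) in oil controls. All exposed fish but 2, the immature fish of the high dose and low PBDE 12, lay above every oil control. The signal was well above background in 4 of 6 high-dose fish, 3 of 7 low-dose fish and 0 of 6 oil controls. It was so in 3 of 12 PCB fish and 0 of 7 seawater controls. Since the filter asked for 5 arrays, the probe was tested only because of its PBDE fish. Its p-values carry that selection. With oil controls dim, only a bound can be given, which takes exposed fish at their measured levels. On group means it was at least 1.04-fold higher over both doses and at least 1.24-fold higher for the high dose alone. There was no bound above 1 for the low dose. The measured means were -3.81 ± 0.90 in PBDE fish (SD, n = 13) and -5.36 ± 0.72 in oil controls (SD, n = 6). The fitted averaged difference was 1.52 log2 units (SE 0.38, limma adjusted p = 0.713), with 1.81 at the high and 1.24 at the low dose, and the doses differed by 0.57 (95% interval from -0.34 to 1.48). Without the immature fish it was 1.94 (limma adjusted p = 0.0874), the smallest adjusted p of the averaged comparison in any setting run. With normexp background correction it was 0.24. The normexp setting added an offset of 50 intensity units, which by itself shrinks log2 differences between dim signals.

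HT_SCCWRP_14315 (contig_14315) was the other probe on the higher side. Its level was -3.61, -0.56 and 0.75 (lowest, median, highest) at the high dose, -3.81, -0.54 and -0.11 at the low dose and -4.68, -3.90 and -2.22 in oil controls. Of the exposed fish, 9 lay above every oil control and 4 within the oil range, and the 3 lowest of those were the immature fish of the high dose and the 2 females of the low dose. In PBDE fish it was well above background in 11 of 13, against 2 of 6 oil controls. Most oil levels were thus not well above background, and the size of the difference is uncertain. The averaged difference was 2.23 log2 units (SE 0.58, limma adjusted p = 0.713), with 2.37 at the high and 2.09 at the low dose, a dose difference of 0.28 (95% interval from -1.09 to 1.65). Among males only the averaged difference was 2.82 (limma adjusted p = 0.614), and with normexp it was 0.74. The part of sex in this pattern was not tested beyond the sex term of the model.

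On the lower side HT_SCCWRP_29625 (contig_29625) had the smallest p. Its level was 0.43, 0.72 and 1.05 (lowest, median, highest) at the high dose, 0.36, 1.27 and 2.18 at the low dose and 1.06, 2.21 and 2.93 in oil controls, and it was well above background in all 19 fish. The 6 high-dose fish lay close together and just below the lowest oil control, whereas 2 of the 7 low-dose fish lay below every oil control and 5 within the oil range. The means were 0.72 ± 0.26 at the high dose (SD, n = 6), 1.29 ± 0.58 at the low dose (SD, n = 7) and 2.10 ± 0.75 in oil controls (SD, n = 6). The averaged difference was -1.08 log2 units (SE 0.26, limma adjusted p = 0.713), with -1.30 (limma adjusted p = 0.588) at the high and -0.86 at the low dose. High minus low dose was -0.45 log2 units, with an interval from -1.05 to 0.16.

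HT_SCCWRP_6522 (contig_6522) was the other probe on the lower side. Its level was -2.32, -1.59 and 0.42 (lowest, median, highest) at the high dose, -1.83, -0.96 and 0.23 at the low dose and -0.29, 0.65 and 1.73 in oil controls. Every one of the 13 exposed fish was below the oil mean, and 10 of them were below every oil control. The averaged difference was -1.87 log2 units (SE 0.44, limma adjusted p = 0.713). At the high dose it was -1.86 and at the low dose -1.88, so the doses differed by 0.03 with an interval from -1.03 to 1.08. With normexp the averaged difference was -1.11.

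**Figure D2:**
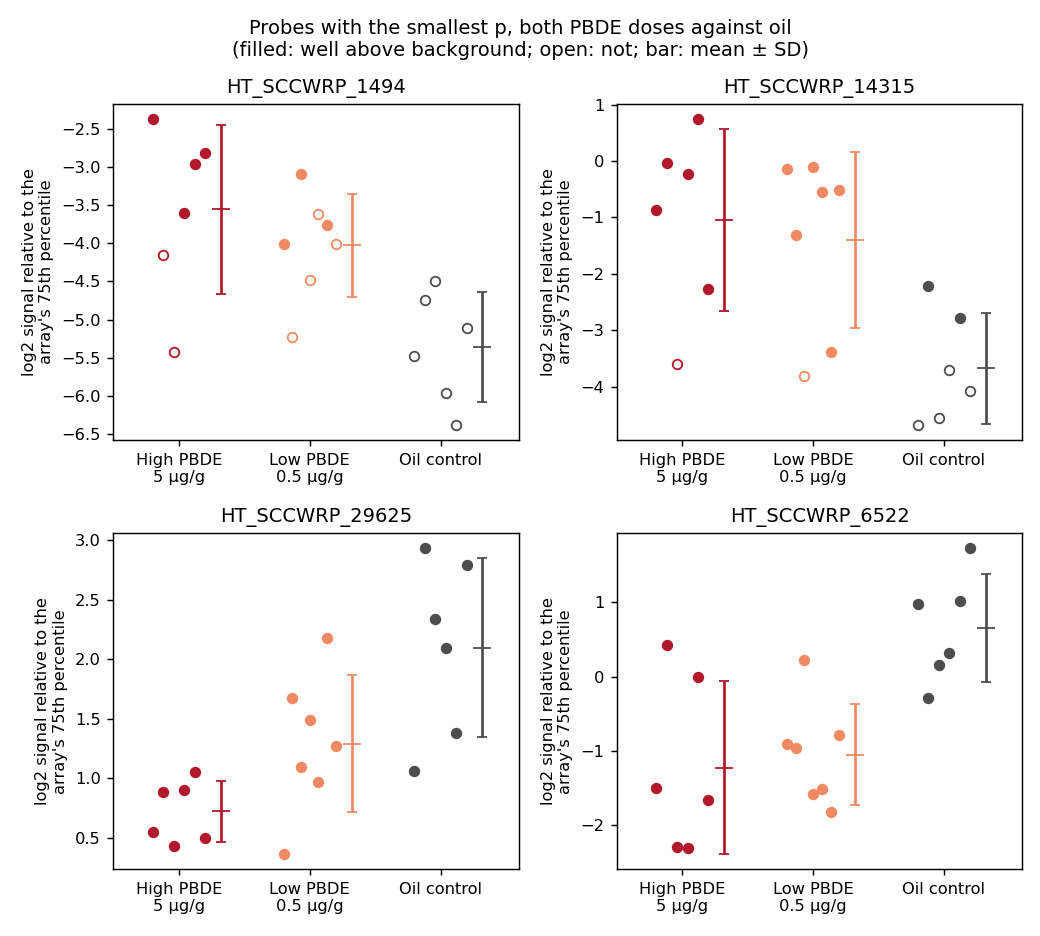
Levels (log2 signal relative to the array's 75th percentile) of the 4 leading probes in each fish, in the order high PBDE, low PBDE and oil control, with filled points for spots well above background, open points for the others and bars for the mean ± SD (n = 6, 7 and 6). HT_SCCWRP_1494 and HT_SCCWRP_14315 lay higher in most exposed fish, HT_SCCWRP_29625 and HT_SCCWRP_6522 lower, and in no panel do all 13 exposed fish stand apart from the 6 oil controls.

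The 4 leading probes were also compared within slides, as the mean of the 1 or 2 PBDE fish minus the oil control. On the 6 slides with both PBDE and oil fish no sign turned, and the difference on the slide lay between 0.46 and 2.76 for HT_SCCWRP_1494, between 0.87 and 4.39 for HT_SCCWRP_14315, between -1.73 and -0.33 for HT_SCCWRP_29625 and between -2.97 and -0.63 for HT_SCCWRP_6522. These probes were chosen by their p in the same arrays, which favours an even sign. With slide as a block in the fit, 0 of 10492 probes passed in the averaged comparison (limma, 566 at an unadjusted p under 0.05, smallest adjusted p = 0.446).

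The other groups of the study place these levels. Fish titled seawater control were at -4.78 ± 0.64 for HT_SCCWRP_1494, -2.18 ± 1.76 for HT_SCCWRP_14315, 1.16 ± 0.49 for HT_SCCWRP_29625 and 0.06 ± 0.73 for HT_SCCWRP_6522 (SD, n = 7). Seawater control 7, also labelled a vehicle control, is among them. For each of the 4 probes the seawater mean lay between the PBDE mean and the oil mean. For HT_SCCWRP_29625 it was close to the PBDE mean of 1.03 ± 0.53 (SD, n = 13). The probes were picked for their difference between PBDE and oil fish, which by itself favours a further group lying between. PCB fish, which share the oil vehicle, were at -4.10 ± 0.65 for HT_SCCWRP_1494, -1.94 ± 1.13 for HT_SCCWRP_14315, 1.62 ± 0.49 for HT_SCCWRP_29625 and -0.53 ± 1.14 for HT_SCCWRP_6522 (SD, n = 12). The differences of PBDE minus PCB fish, which use no oil control, were 0.38 for HT_SCCWRP_1494, 0.39 for HT_SCCWRP_14315, -0.47 for HT_SCCWRP_29625 and -0.55 log2 units for HT_SCCWRP_6522, and none passed (limma adjusted p from 0.935 to 0.962). Over all probes 0 of 10492 (0%) passed between the 2 mixtures (limma, smallest adjusted p = 0.728). An unadjusted p under 0.05 was reached by 554 probes (5.28%), 279 higher (2.66%) and 275 lower (2.62%) in PBDE fish, and a 2-fold difference by 65 higher (0.62%) and 43 lower (0.41%) probes. The PCB doses were 1 and 10 µg per g, so the mixtures were not compared at matched doses.

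The doses on their own gave no calls either. At the high dose 0 of 10492 probes passed (0%, limma, smallest adjusted p = 0.588). There, 505 probes (4.81%) had an unadjusted p under 0.05, 227 higher (2.16%) and 278 lower (2.65%), and 188 (1.79%) were 2-fold or more higher and 167 (1.59%) 2-fold or more lower. At the low dose 0 of 10492 passed (0%, limma, smallest adjusted p = 0.998). Here 462 probes (4.4%) had an unadjusted p under 0.05, 244 higher (2.33%) and 218 lower (2.08%), and 176 (1.68%) were 2-fold or more higher and 164 (1.56%) 2-fold or more lower. The leading probes at the high dose were HT_SCCWRP_1494, HT_SCCWRP_29625, HT_SCCWRP_6522 and HT_SCCWRP_26727. The probes that led at the low dose lay on the same side at the high dose. They were picked by their low-dose p, and both doses share the 6 oil controls, which favours the same side. HT_SCCWRP_31933 had differences from oil of -1.78 at the high dose, -2.47 at the low dose and -2.13 averaged, and HT_SCCWRP_14389 had -0.81 at the high dose, -1.35 at the low dose and -1.08 averaged. Under normexp the low-dose value of HT_SCCWRP_14389 was 0.053. That probe was well above background in 3 of 6 high-dose fish, 2 of 7 low-dose fish and 5 of 6 oil controls. The size of its difference is thus uncertain. HT_SCCWRP_4949 had differences of 0.46 at the high dose, 1.52 at the low dose and 0.99 averaged, and HT_SCCWRP_14760 of 0.98 at the high dose, 1.44 at the low dose and 1.21 averaged. HT_SCCWRP_14760 was well above background in 2 of 6 high-dose fish, 4 of 7 low-dose fish and 0 of 6 oil controls. It was so in 2 of 12 PCB fish and 0 of 7 seawater controls. Thus it met the filter of 5 arrays only through PBDE fish, and its p-values carry that selection. Its group mean over both doses was at least 1.26-fold higher (limma adjusted p = 0.713), with PBDE fish at their measured levels. Of those fish, 6 of 13 were well above background. The probe's low-dose difference under normexp was 0.34. Of these 4 probes HT_SCCWRP_4949 had the doses furthest apart relative to their error (high minus low -1.06, SE 0.38, limma adjusted p = 0.999).

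**Figure D3:**
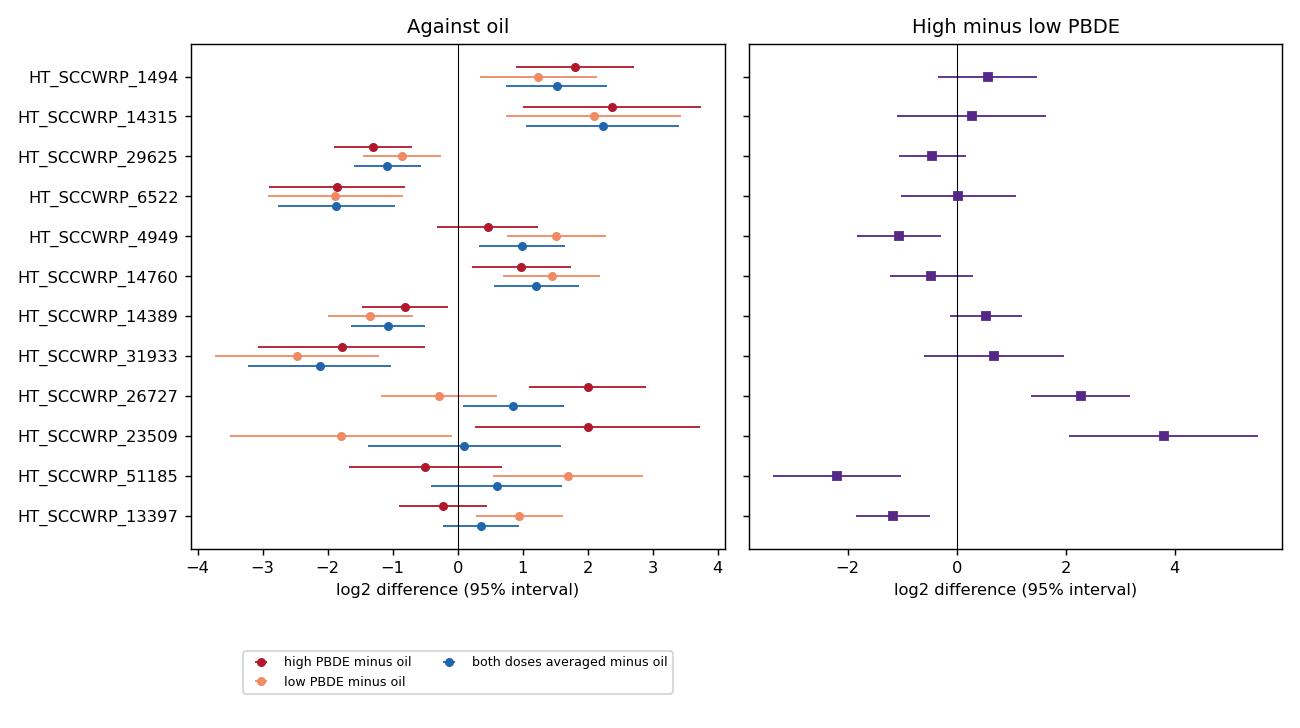
Log2 differences with their unadjusted 95% intervals for the 12 named probes. Left, high PBDE, low PBDE and both doses averaged, each minus oil; right, high minus low PBDE. For the upper 8 probes both doses lie on the same side of oil, which their choice by p against the shared oil controls favours. For the lower 4, which were picked for their difference between doses, the fitted values lie on opposite sides. That of HT_SCCWRP_26727 at the low dose compares signals not well above background. For HT_SCCWRP_23509 the low-dose value compares signals most of which were not well above background.

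A further comparison asked whether the liver differed between the doses themselves. No probe passed between the high and the low dose (0 of 10492, 0%, limma, smallest adjusted p = 0.131), and 420 (4%) had an unadjusted p under 0.05, 224 (2.13%) higher and 196 (1.87%) lower at the high dose. A difference of 2-fold or more was found for 196 (1.87%) higher and 144 (1.37%) lower probes. For 6093 probes (58.1%) the interval of the dose difference lay within 2-fold. The balance of directions again followed the scaling, with 278 of 412 probes higher when arrays were centred on their median and 122 of 295 under normexp, a setting that moves the median difference of all probes to -0.14 log2 units.

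HT_SCCWRP_26727 (contig_26727) had the smallest p between the doses. Its level was -4.97, -3.05 and -2.58 (lowest, median, highest) at the high dose, -6.37, -5.90 and -5.01 at the low dose and -6.06, -5.31 and -4.68 in oil controls. Among the 38 fish it was well above background only in 5 high PBDE fish, and in 0 of 7 at the low dose, 0 of 12 PCB fish, 0 of 6 oil controls and 0 of 7 seawater controls. High PBDE 4 was the high-dose fish in which it stayed dim. The filter asked for 5 arrays, so the probe was tested only because of the high-dose fish in which it was bright, and its p-values carry that selection. On group means it was at least 1.55-fold higher at the high than at the low dose and at least 1.46-fold higher than in oil controls. The fitted difference between doses was 2.28 log2 units (SE 0.45, limma adjusted p = 0.131), and in the averaged comparison with oil it was 0.86 (SE 0.38, limma adjusted p = 0.999). The fitted low-dose difference of -0.29 sets 2 groups that were not well above background against each other and gives no direction. Between doses it had a limma adjusted p of 0.0185 when sex was left out and of 0.00998 when high PBDE 4, its dim fish, was left out, both with the same selection by the filter. With normexp the dose difference was 0.04.

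HT_SCCWRP_23509 (contig_23509) was the other probe on the higher side of the dose comparison. Its level was -5.48, -1.002 and -0.11 (lowest, median, highest) at the high dose, -6.63, -6.01 and -2.81 at the low dose and -5.77, -5.10 and -0.26 in oil controls. Each group held both bright and dim fish, with signals well above background in 5 of 6 fish at the high dose, 1 of 7 at the low dose and 2 of 6 oil controls. The dose difference was 3.80 log2 units (SE 0.85, limma adjusted p = 0.466), and the difference from oil was 2.00 at the high dose, -1.80 at the low dose and 0.099 averaged. Since 6 of 7 low-dose fish were not well above background, the size of the dose difference is uncertain, and under normexp it was 0.58. The low-dose difference from oil compares mostly dim signals and gives no firm direction. Only oil control 45 (-0.26) and oil control 15 (-2.96) were well above background among the oil controls.

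The probes lower at the high than at the low dose were bright in all 19 fish. HT_SCCWRP_51185 (contig_51185) had a level of -2.28, -0.16 and 0.72 (lowest, median, highest) at the high dose, -0.18, 1.19 and 3.46 at the low dose and -1.63, -0.09 and 1.45 in oil controls. HT_SCCWRP_13397 (contig_13397) had a level of 1.33, 2.28 and 3.00 at the high dose, 2.72, 3.48 and 4.21 at the low dose and 1.80, 2.22 and 3.35 in oil controls. All 6 high-dose fish lay below the low-dose mean for both probes, although single fish of the doses overlapped. Their dose differences were -2.20 (SE 0.58) and -1.17 (SE 0.33) log2 units, both with a limma adjusted p of 0.999.

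**Figure D4:**
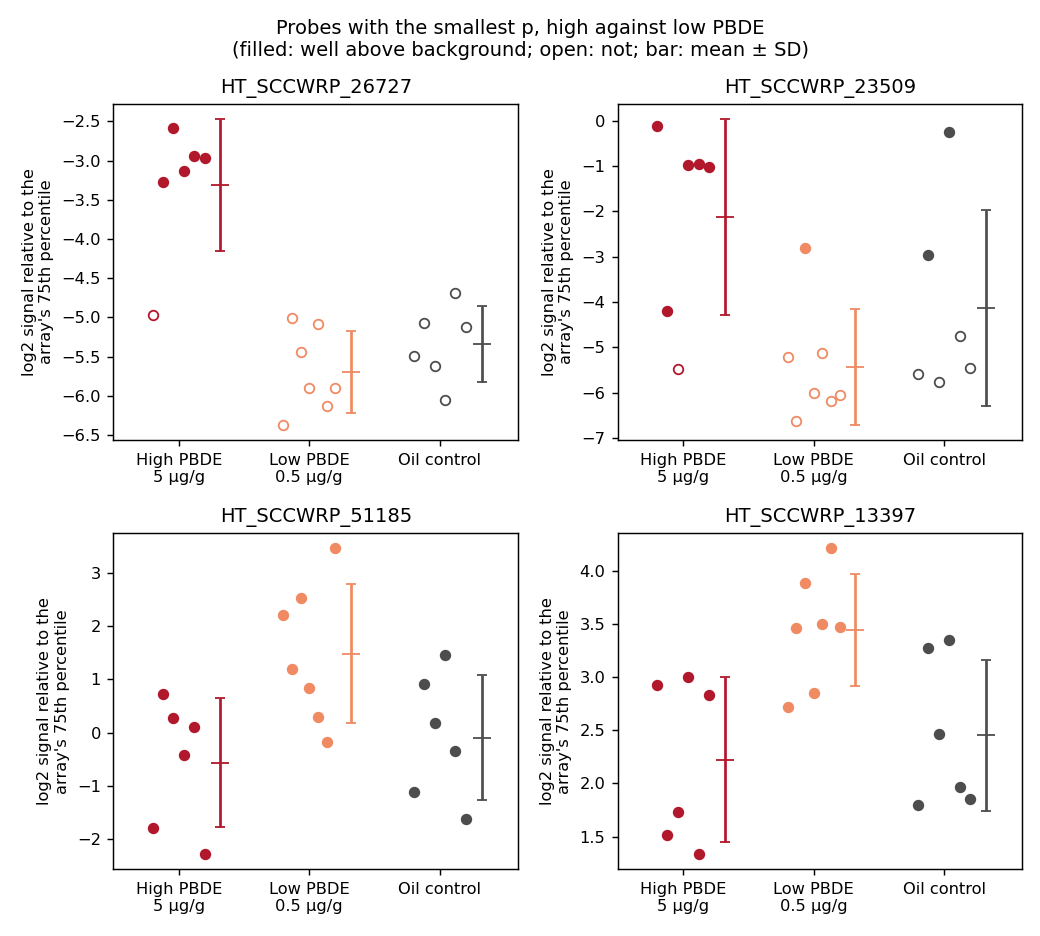
Levels (log2 signal relative to the array's 75th percentile) of the 4 probes with the smallest p between doses, in each fish of the high PBDE, low PBDE and oil groups, with filled points for spots well above background, open points for the others and bars for the mean ± SD (n = 6, 7 and 6). HT_SCCWRP_26727 and HT_SCCWRP_23509 were bright in 5 of 6 high-dose fish, while HT_SCCWRP_51185 and HT_SCCWRP_13397 lay higher on average in low-dose fish than in the other groups.

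Presence or absence of a signal was counted as well. Of the 10492 probes, 6394 were well above background in all 13 PBDE and all 6 oil fish. Of the 257 probes dim in every oil control, 9 were well above background in 7 or more of the 13 PBDE fish, and 9 fish was the most reached. The filter asked for 5 arrays, so these 257 were tested only through fish of other groups, PBDE fish among them. Their counts carry that selection and were not tested. Of the 7275 probes well above background in every oil control, 8 were so in 6 or fewer PBDE fish, with 5 as the fewest. Probes well above background in all 13 PBDE fish were so in at least 3 oil controls, and those dim in all 13 were well above background in at most 4 oil controls.

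Single fish were also placed against the range of the 6 oil controls. The share of probes outside that range was 25.7% to 27.9% per fish at the high dose (median 27.0%) and 26.0% to 36.2% at the low dose (median 28.1%). In fish that were not given PBDEs it was 25.8% to 36.6% at the high and 25.1% to 41.3% at the low PCB dose, and 23.7% to 34.9% in seawater controls (median 30.1%). The ranges overlap, the PBDE medians lay below the seawater median, and no test was made, since all shares rest on the same 6 oil controls. A fish no different from the oil controls would also lie outside their range for part of the probes. That part was not computed.

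The main axis of variation of the 19 profiles was described by the first principal component, which held 11.3% of the variance. PBDE fish scored 8.1 ± 23.0 and oil controls -17.6 ± 19.2 (SD, n = 13 and 6), with 7.9 ± 12.3 at the high and 8.3 ± 30.6 at the low dose. The difference of 25.7 had an exact permutation p of 0.0283 (two-sided) and 0.142 after adjustment over the 5 measures per array, and did not pass. For tests with a fish left out, the component stayed as fitted on all 19 profiles. The difference then passed without low PBDE 12 (adjusted exact permutation p = 0.0307) or without oil control 8 (adjusted exact permutation p = 0.0350). These fish had the lowest PBDE score (-39.3) and the highest oil score (16.3), so leaving out either one enlarges the difference by construction. Both p-values were adjusted over the 5 measures and not over the choice of fish left out. Low PBDE 12, the array with the highest 75th percentile of the 19 (184), had the lowest score (-39.3), and low PBDE 38, with the lowest 75th percentile (74.3), had the highest (52.9). The part of array brightness in this score was not tested. On all 6 slides the mean score of the 1 or 2 PBDE fish was above that of the oil control, by 6.2 to 46.5. Single fish went the other way. On slide 1 low PBDE 12 lay below oil control 49 (-28.7). On slide 4 low PBDE 48 (-14.2) lay below oil control 15 (-8.98). The second component (9.53% of the variance) scored 0.05 ± 25.6 in PBDE fish and -0.10 ± 16.5 in oil controls (exact permutation p = 0.995).

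**Figure D5:**
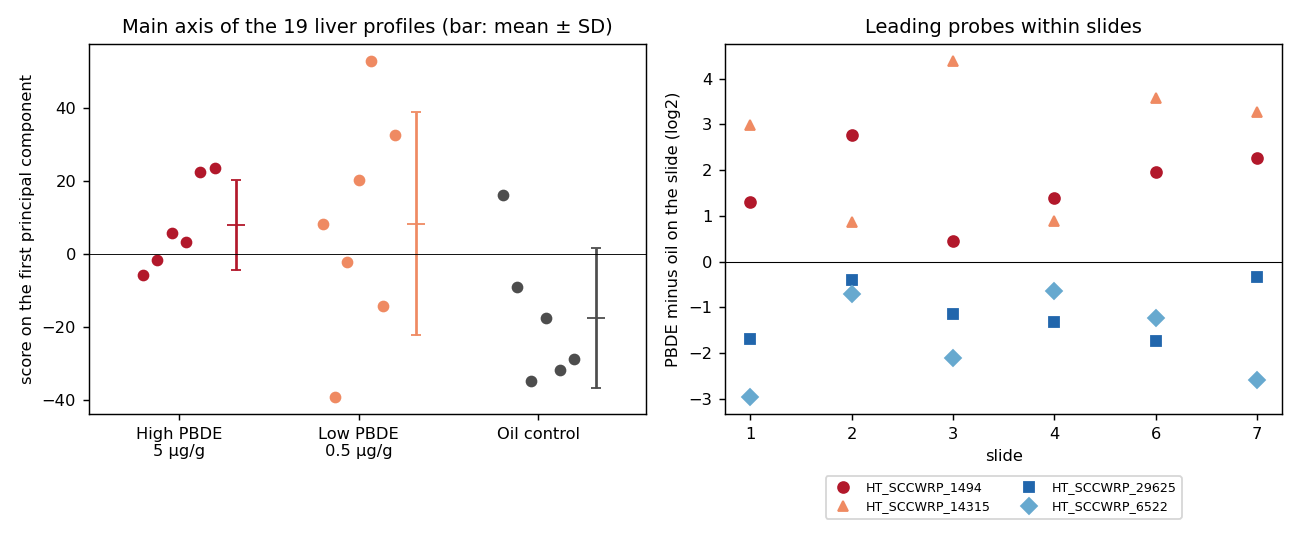
Left, the score of each fish on the first principal component of the 19 profiles (arbitrary units), in the order high PBDE, low PBDE and oil control, with bars for the mean ± SD (n = 6, 7 and 6): oil controls lie lower on average, with oil control 8 among the exposed fish and low PBDE 12 below every oil control. Right, the mean of the PBDE fish minus the oil control (log2) on each of the 6 slides for the 4 leading probes. All lie above 0 for the 2 higher and below 0 for the 2 lower probes.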

How the data were processed

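Liver RNA of each fish was measured on 1 custom Agilent array with 1 colour. The authors obtained intensity values and quality flags from the scans with Feature Extraction 11.5.1.1, per the file headers. The deposited table of intensity values differs from the scanner files by at most 0.497%. No gene names were used, since the files hold contig numbers only.

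The processed signal of the 15207 non-control spots was taken as log2 relative to each array's 75th percentile and averaged per probe, leaving out spots with an outlier flag. Probes well above background (in at least 0.5 of their spots) on at least 5 arrays were kept, 10502, of which 10 had no unflagged spot on some array, leaving 10492. All 38 arrays were fitted by group and sex with limma 3.58.1 in R 4.3.3 (intensity trend, two-sided, threshold 0.05). Array measures were tested by exact permutation with scipy 1.17.1, adjusted over 5 measures, and the principal components were added after seeing the data. The test was checked on simulated data. The simulated noise was normal and independent between probes, with no slide effect and no background floor. For an "at least" fold, each array of the dim group was given the probe's level or the array's lowest level well above background, whichever was higher, and group means were compared, which leaves out the spread between fish. The brighter group kept its measured levels, also in fish not well above background. Named probes are the 2 with the smallest p in each direction for the averaged, high-dose, low-dose and dose-against-dose comparisons. Comparisons, probes and alternatives were chosen with earlier results of these data known. The fixed gene lists could not be applied. Alternatives changed scaling, background correction, filter, sex term, fish, slide, scan day, variance model, weights and input. Normexp started from each spot's median signal and local background and added an offset of 50 intensity units.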

Additional observations from a re-analysis of the deposited data

Results flagged for a closer look

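Dixon's test at 95% asks whether the highest or lowest fish stands apart from its group. It was applied to 5 array measures and 12 named probes in the 3 groups, 51 tests in all. Only 3 values exceeded the limit, and chance alone exceeds it in about 1 of 20 groups. High PBDE 4 had a level of -4.97 for HT_SCCWRP_26727, against -3.28 to -2.58 in the other high-dose fish. Low PBDE 13 had a level of -2.81 for HT_SCCWRP_23509, against -6.63 to -5.12 in the other low-dose fish. Low PBDE 48 had a level of 1.02 for HT_SCCWRP_4949, against 2.46 to 3.14 in the other low-dose fish.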

How the results depend on the processing

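In the averaged comparison 0 probes passed in all 37 other settings of the limma fit (smallest adjusted p from 0.0874 to 0.999, 287 to 691 probes at an unadjusted p under 0.05), and 0 passed in 36 for each dose against oil. At an unadjusted limma p under 0.05, the averaged comparison gave 432 probes without oil control 20, without high PBDE 18 and without both. These are nearly the same fit, since the sex term takes up a lone immature fish. Between doses and in the joint test 0 to 1 probe passed with single fish left out, and 1 without the sex term (adjusted p = 0.0185 and 0.0349). In all 4 cases it was HT_SCCWRP_26727, which met the filter only through 5 high-dose fish. Its fitted dose difference, against a group not well above background, was 2.38 without the sex term and 2.64 without high PBDE 4 (joint adjusted p = 0.0148). Among males only 1 probe, HT_SCCWRP_4192, passed between PBDEs and PCBs (adjusted p = 0.00802), where 1 low PCB fish was left and was assumed to vary like the others. Counts at an unadjusted p under 0.05 for the averaged comparison were 287 with normexp and 308 with probes well above background on all arrays, where 5564 were tested. At the high dose they were 235 and 288 in these settings, in the joint test 270 and 244, and between PBDEs and PCBs 215 and 342. With all-array probes they were 277 at the low dose and 230 between doses, and with array weights 709 at the low dose and 675 in the joint test. Probes higher among these were 306 of 460 at the high dose with median centring, 235 of 370 at the low dose with normexp (median shift of all probes 0.13), and against PCBs 368 of 608 with quantile normalization, 327 of 513 with median centring and 285 of 753 with no filter. Doses lay on the same side of oil for 3805 of 5564 all-array probes (68.4%), and in the other settings for 58.4% to 67.1%. Of 570 values of the named probes in other settings, 567 kept their sign and side of the threshold, 2 passed it (HT_SCCWRP_26727, above), and HT_SCCWRP_14389 changed sign at the low dose with normexp (0.053). Wherever fish were left out, the components and the correlations within groups stayed as computed from all 19 arrays. The first component's difference ranged from 22.0 to 32.5 with single fish left out. It passed without low PBDE 12 (29.7, adjusted exact permutation p = 0.0307) or oil control 8 (32.5, adjusted exact permutation p = 0.0350). These are the lowest PBDE and the highest oil fish on this component, so leaving out either one enlarges the difference by construction. With normexp the first component's difference was 9.80. The second component's ranged from -4.52 to 4.88, and was 16.5 with normexp (adjusted exact permutation p = 0.0450), -5.91 with all-array probes and -2.63 without the immature fish. For other scalings, background correction and probe sets the components were refitted. Whether these are the same axes was not tested. Probes well above background ranged from -176 to 92.2 (36.5 in males), the 75th percentile from -8.09 to 6.27, and the mean correlation within groups from -0.00184 to 8.98e-05 (0.00266 with all-array probes). The cause of these changes was not tested. No paired analysis was possible because the groups share no fish numbers, and slide served as the block instead (0 probes passed in the averaged comparison, 566 at an unadjusted p under 0.05 by limma). Dim probes have the widest intervals.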
